A study of Malus hupehensis with 3 samples.

Results

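The mdm-miR482 and mdm-miR2118 families of apple leaves are described here, with the gene models that the degradome data paired with them. The members were all known miRNAs whose names start with mdm-miR482 or mdm-miR2118. These were 8 names that stood for 6 distinct mature sequences, out of 85 distinct known sequences in all, and every gene model paired with one of them was taken, which gave 30 of the 129 gene models paired with any known miRNA. The names mdm-miR2118a, mdm-miR2118b and mdm-miR2118c share 1 sequence and carried the same counts, so they were counted once as mdm-miR2118. The remaining names, mdm-miR482a-5p, mdm-miR482a-3p, mdm-miR482b, mdm-miR482c and mdm-miR482d, have 1 sequence each.

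The leaves came from 18 trees of *Malus hupehensis*, a wild apple, that were 6 years old. Adult phase (A) leaves were taken from the tree tops and juvenile phase (J) leaves from the base, and each phase was pooled into 1 small RNA library, with 1 further degradome library made from J. There is no replicate of any library, so no test of the phase was made, and phase and place on the tree cannot be told apart. Intervals below are exact 95% limits, those of shares, levels and J over A ratios by Clopper-Pearson, except where a ratio between abundant members has an approximate 95% interval on the log scale. They hold for counting error alone, because the libraries were amplified without molecular identifiers and reads of 1 molecule cannot be told from reads of several.

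In tomato and Medicago, miR482 and miR2118 are known as one superfamily of miRNAs that pair with mRNAs of NBS-LRR disease resistance genes, at the stretch that codes for the P-loop, the loop of the nucleotide binding domain that holds the phosphates of ATP. Plant miRNAs guide the cutting of a paired mRNA between the bases opposite bases 10 and 11 of the miRNA, and miRNAs of 22 nt can also start the production of phased secondary small RNAs from the cut transcript. Degradome sequencing reads the 5′ ends of uncapped RNA, so that a cut shows as reads that begin at the same base.

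The mature sequences are shown because the target sites below turn on a few bases of them. They are written 5′ to 3′ with the seed, bases 2 to 8, in capitals.

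mdm-miR482a-5p: aGGAAUGGgcuguuugggaaga
mdm-miR482a-3p: uUCCCAAGcccgcccauuccua
mdm-miR482b: uCUUUCCUaucccucccauucc
mdm-miR482c: uCUUUCCUaacccucccauucc
mdm-miR482d: aAUGGAAGgguaggaaagaag
mdm-miR2118: cUACCGAUgccacuaaguccca

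All were 22 nt long except mdm-miR482d, which was 21 nt. Only mdm-miR482b and mdm-miR482c shared a seed, and no other known sequence had the seed of any member. These 2 sequences were identical at 21 of 22 bases and differed by U10A, counted from the 5′ end with the base of mdm-miR482b first. Set side by side without gaps, mdm-miR482a-3p matched mdm-miR482b at 16 of 20 bases once it was moved by 2 bases, and mdm-miR2118 matched mdm-miR482a-3p at 12 of 22 bases with no shift. The 5p and 3p sequences of mdm-miR482a, which the names place on opposite arms of 1 hairpin, formed 19 base pairs with each other in RNAduplex. The sequence of mdm-miR482d, which carries no arm in its name, formed 18 base pairs with mdm-miR482b and also 18 with mdm-miR482c.

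The members covered a range of levels of over 3 orders of magnitude. mdm-miR482a-5p had 121128 reads in A and 109535 in J, or 7468 (95% interval 7426 to 7510) and 8085 (8038 to 8133) reads per 1000000 clean reads (RPM). It was rank 2 of the 85 known sequences in A, below mdm-miR166a, and rank 5 in J. It made up 89.0% of the mdm-miR482 reads in A and 90.6% in J.

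The other arm, mdm-miR482a-3p, had 5649 reads in A and 5069 in J, or 348.3 RPM (339.2 to 357.5) and 374.2 RPM (363.9 to 384.6). mdm-miR482d had 9202 and 6231 reads, or 567.3 RPM (555.8 to 579.0) and 459.9 RPM (448.6 to 471.5). mdm-miR2118 had 3247 and 6599 reads, or 200.2 RPM (193.4 to 207.2) and 487.1 RPM (475.4 to 499.0). In A these stood in the order mdm-miR482d, mdm-miR482a-3p and mdm-miR2118 with intervals that did not overlap. In J the order was mdm-miR2118, mdm-miR482d and mdm-miR482a-3p, again with no overlap.

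The last pair was far lower. mdm-miR482b had 61 reads in A and 29 in J, or 3.76 RPM (2.88 to 4.83) and 2.14 RPM (1.43 to 3.07). mdm-miR482c had 59 and 33 reads, or 3.64 RPM (2.77 to 4.69) and 2.44 RPM (1.68 to 3.42). Within each library these 2 did not differ beyond their intervals, and together they made up 0.0882% of the mdm-miR482 reads in A (0.0731 to 0.105) and 0.0513% in J (0.0393 to 0.0657). They differ at a single base, and the authors' matching of reads to known miRNAs tolerated a mismatch. Reads of either sequence can therefore have been counted under the other name or under both, and these counts are uncertain beyond their intervals.

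**Figure D1:**
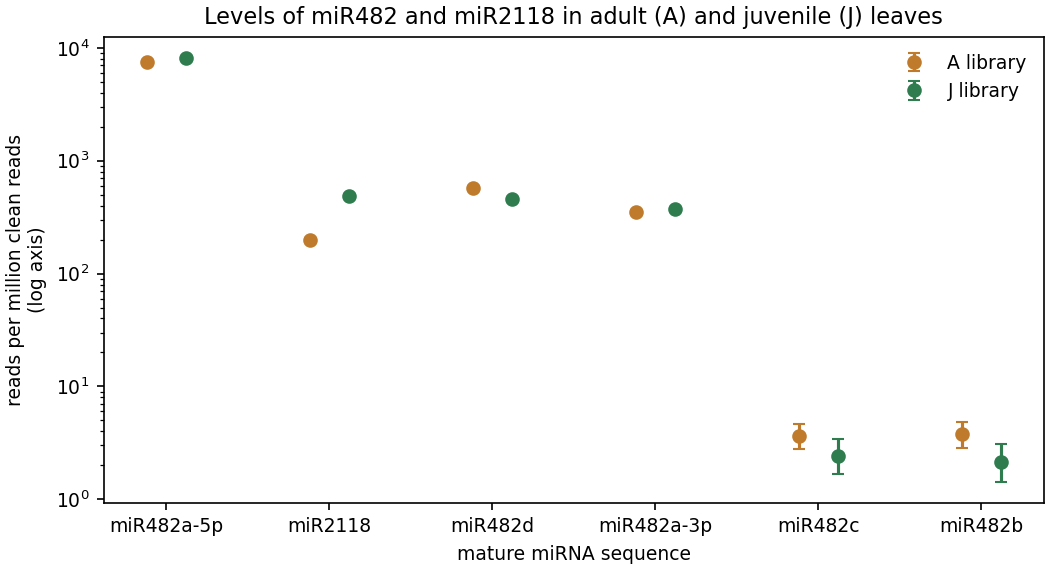
Reads per 1000000 clean reads (log axis) of the 6 mature sequences in the A and J libraries. Each point is 1 library and bars are exact 95% intervals of the count, which are smaller than the point for the 4 more abundant sequences. mdm-miR482b and mdm-miR482c lie between 2.14 and 3.76 RPM, and mdm-miR482a-5p lies at 7468 and 8085.

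The comparison of J with A asks which members differed between juvenile and adult leaves. The call asked for a ratio of 2 or more, or of 0.5 or less, for an interval without 1, and for at least 10 reads in 1 of the libraries. By this rule 1 of the 6 member sequences, mdm-miR2118, was called higher in J, where 37.3% of the 59 known sequences with enough reads were. None of the 6 was called higher in A, against 8.47% of the 59. On clean reads, neither share of the members was above that of the known sequences.

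On the scale of clean reads, mdm-miR2118 had a J over A ratio of 2.43 (2.33 to 2.54). The ratio was 1.08 (1.07 to 1.09) for mdm-miR482a-5p and 1.07 (1.03 to 1.12) for mdm-miR482a-3p. It was 0.811 (0.785 to 0.837) for mdm-miR482d, 0.670 (0.424 to 1.04) for mdm-miR482c and 0.569 (0.353 to 0.900) for mdm-miR482b, and the sum over mdm-miR482 gave 1.06 (1.05 to 1.07).

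These ratios depend on the scale, because most known miRNAs had more RPM in J. Over known sequences that had at least 10 reads in each library, the median log2 ratio was 0.69 on clean reads. With that median set to zero, the ratio was 1.51 (1.45 to 1.57) for mdm-miR2118, 0.671 (0.666 to 0.677) for mdm-miR482a-5p, 0.503 (0.487 to 0.519) for mdm-miR482d, 0.415 (0.263 to 0.646) for mdm-miR482c and 0.353 (0.219 to 0.558) for mdm-miR482b. Thus mdm-miR2118 was no longer called, and mdm-miR482b and mdm-miR482c were called higher in A, 2 of the 6 members against 22% of the 59 known sequences. On this scale the calls among known sequences were 13 in each direction, against 22 for J and 5 for A on clean reads. By the known miRNA total, 5 of the 6 members were called higher in A, against 37.3% of the known sequences, and 0 higher in J, against 16.9%. TMM gave the same counts as the median ratio. Without mdm-miR156 and mdm-miR535 in the known total, mdm-miR482b alone was called higher in A, against 13.6%, and no member higher in J, against 25.4%. With no scaling, mdm-miR482b was called higher in A, against 13.6%, and mdm-miR2118 higher in J, against 27.1%. At a fold of 1.5 on clean reads these same members were called, against 13.6% and 52.5%. The direction of mdm-miR482a-5p and mdm-miR482a-3p turned with the scale and is therefore not given as a difference of the phases, while mdm-miR2118 was above 1 and mdm-miR482b, mdm-miR482c and mdm-miR482d were below 1 on each of the 6 scales. For mdm-miR482c the interval included 1 on clean reads, and for mdm-miR2118 it included 1 when the libraries were scaled by the known miRNA total.

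**Figure D2:**
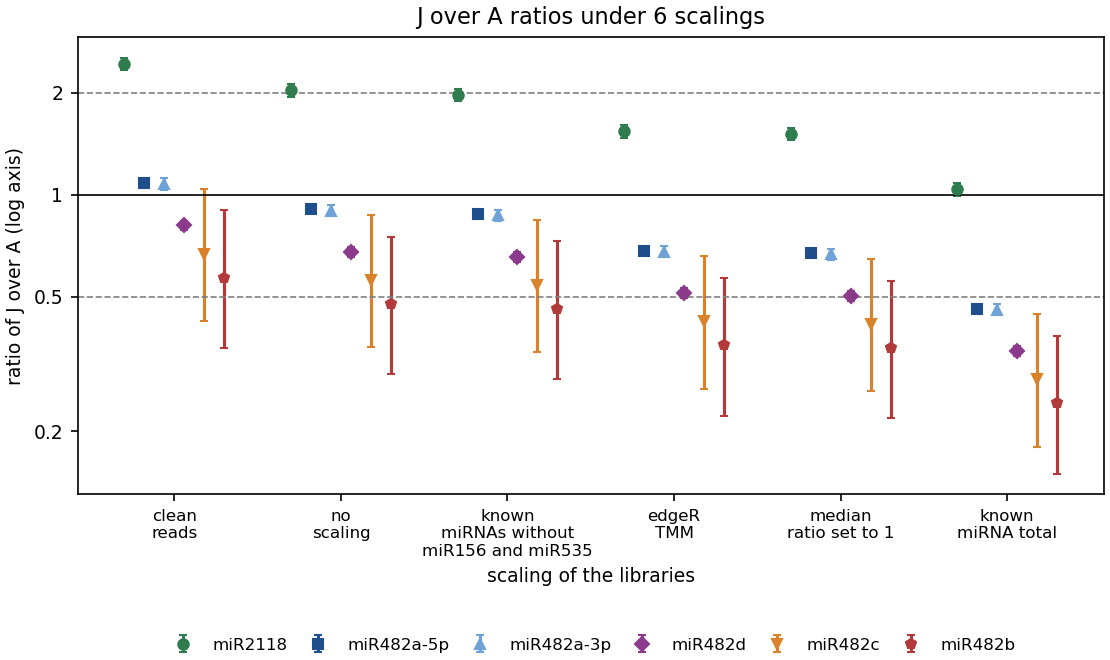
Ratio of J over A (log axis) of the 6 mature sequences under 6 ways of scaling the libraries. Points are 1 library against 1 library, bars are exact 95% intervals, the solid line is a ratio of 1 and the dashed lines are 2 and 0.5. All points of a scale move together, so mdm-miR2118 stays the highest and mdm-miR482b the lowest while the distance from the line of 1 changes.

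Ratios between members need no scale. The J over A ratio of mdm-miR2118 was 2.29 times that of mdm-miR482 as a whole (95% interval on the log scale 2.19 to 2.39), and mdm-miR2118 made up 2.33% (2.25 to 2.41) of the reads of both families in A and 5.18% (5.06 to 5.30) in J. Within mdm-miR482, the ratio of mdm-miR482a-5p was 1.34 times that of mdm-miR482d (1.29 to 1.38 on the log scale), 1.90 times that of mdm-miR482b (1.20 to 3.07) and 1.62 times that of mdm-miR482c (1.04 to 2.56). Those of mdm-miR482b and mdm-miR482c differed by a factor of 0.850 with an interval from 0.439 to 1.64.

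The arms of mdm-miR482a kept the same proportion in both libraries. The 5p sequence made up 95.5% (95.4 to 95.7) of the reads of both arms in A and 95.6% (95.5 to 95.7) in J, and the ratio of 5p to 3p was 21.4 and 21.6. The J over A ratio of 5p was 1.01 times that of 3p (0.969 to 1.05 on the log scale), and a difference in arm use between the libraries was not detectable within this interval. The reads of mdm-miR482d outnumbered those of mdm-miR482b by 151 to 1 in A (117 to 197) and 215 to 1 in J (150 to 321), with intervals that overlapped. When mdm-miR482c was added to mdm-miR482b, the figures became 76.7 (64.1 to 92.6) and 101 (78.3 to 131).

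The degradome library answers which mRNAs of J leaves carried cuts that fit these miRNAs. All 55 records of the members belonged to mdm-miR482b, with 29, or mdm-miR482c, with 26. mdm-miR482a-5p, mdm-miR482a-3p, mdm-miR482d and mdm-miR2118 had 0 records each, although each had over 100 times as many reads in J as mdm-miR482b or mdm-miR482c. The records fell on 30 gene models, of which 25 were paired with both, 4 with mdm-miR482b only and 1 with mdm-miR482c only, and none of the 30 was paired with another miRNA, known or predicted. The families next in number of gene models were mdm-miR156 with 15, mdm-miR858 with 13 and mdm-miR166 with 9. Gene models with the same bases around the site and the same count can share reads. Different windows with their counts were therefore counted as well, a unit of which 1 gene model can have several. Of these mdm-miR156 had 18 on its 15 gene models and mdm-miR482 had 13 on its 30. The numbers were 9 for mdm-miR858 and 5 for mdm-miR166. The 2 paired members of mdm-miR482 accounted for 23.3% of the gene models of known miRNAs at 29 and 33 reads in J. Summed over each whole family, mdm-miR482 had 120897 reads in J and mdm-miR156 had 543020. The target list in the study's supplement names further gene models for mdm-miR482, and a gene model for mdm-miR2118, that are not among the records used here. They were not analysed here, so the 30 gene models are not the study's full list. The records hold accepted pairings only, so a miRNA with 0 records is not shown to cut nothing, and in A leaves targets were not measured.

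Each record gives 31 bases of the gene model around the site, the position of the site, a score and a count. The score is a pairing penalty of 1 for a mismatch and 0.5 for a G:U wobble, a rule that gave the deposited score of all 1525 records of known miRNAs. The highest score in the records was 4. The count is taken to be the number of degradome reads that begin at the site, which the deposited file does not state. The 30 gene models had 13 different windows, and gene models with 1 window had 1 count, so they formed 13 sets. The windows of 6 of the 13 sets are shown 5′ to 3′ in DNA letters, with the 22 bases opposite the miRNA in capitals. The site is base 15 of the window, opposite base 10 of the miRNA in all 55 records. Positions are counted from the start of the gene model, and no genome was at hand to place them on a chromosome.

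Set 1: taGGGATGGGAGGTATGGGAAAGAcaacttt
Set 5: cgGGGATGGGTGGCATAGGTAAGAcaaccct
Set 6: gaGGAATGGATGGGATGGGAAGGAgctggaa
Set 7: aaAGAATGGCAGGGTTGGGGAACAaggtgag
Set 8: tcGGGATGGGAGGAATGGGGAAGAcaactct
Set 12: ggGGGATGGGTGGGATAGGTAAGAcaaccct

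Set 1 had a count of 80 and held MDP0000211316, MDP0000217718, MDP0000266458 and MDP0000299465. Set 2, MDP0000248321 and MDP0000256429, Set 3, MDP0000275398, and Set 4, MDP0000266073, had a count of 80 as well. The windows of these 4 sets differed only before the site, and their 17 bases from the site on were identical. The count of 80 is therefore not 8 measurements, since the same reads can have been placed on all 8 gene models, and which of them was cut cannot be told apart.

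Set 5 had a count of 73 and held MDP0000194077, MDP0000287865 and MDP0000311052. Set 6 had a count of 62 and held MDP0000130212, MDP0000222555 and MDP0000367358, and Set 7 had a count of 55 in MDP0000854581 alone. Set 8 was the largest, with 9 gene models and a count of 46. These were MDP0000166800, MDP0000167895, MDP0000233739, MDP0000309995, MDP0000312668, MDP0000316884, MDP0000415930, MDP0000464475 and MDP0000704323. These 9 share all 31 bases of the window, and their likeness beyond it was not tested. The same reads can have been placed on all 9.

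The lower counts belonged to small sets. Set 9, MDP0000304601 and MDP0000810351, and Set 10, MDP0000160232, had a count of 42 and the same 17 bases from the site on. These are also the bases of Sets 1 to 4, whose count was 80, so counts differed between windows that these bases do not tell apart. Set 11, MDP0000279585, and Set 12, MDP0000210772, shared a count of 37 and had the bases of Set 5 from the site on, and Set 13, MDP0000135249, had a count of 36. MDP0000210772 is the only one of the 30 gene models that the tables of the study annotate, as a putative disease resistance protein of the TIR-NBS-LRR class.

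Counting the bases from the site on together with the count once, the 30 gene models came down to 8 groups whose counts sum to 431, against 1750 when each gene model is counted. Counts at the members' sites ran from 36 to 80, whereas the 127 sites of other known miRNAs ran from 25, the smallest count in the records, to 1661 with a median of 102. In 59 of the 99 gene models of other known miRNAs, the highest count was above 80. Of the 127 sites of other known miRNAs, 58 had a count of 80 or less. The sites of mdm-miR482b and mdm-miR482c were thus many in number of gene models. Their counts lay in the lower part, where many sites of other known miRNAs also lay.

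Most of the windows held the codons of a P-loop in frame. All gene models had a length that is a multiple of 3, so lengths are coding lengths and the reading frame follows from the position. The Walker A codon pattern, which is the codon form of the P-loop and consists of a glycine codon, 4 codons of any kind, a glycine codon, a lysine codon and a threonine or serine codon, was found in frame in 26 of the 30 gene models and in 11 of the 13 windows. It was found in frame in 0 of the 99 gene models of other known miRNAs. Searched on both strands and in every frame, 11 of the 436 different windows in the records held it, or 2.52%, and these were the same 11. Read in the frame of these windows, the exact complement of mdm-miR482b already holds the glycine and lysine codons of the pattern. Windows accepted for pairing with it must hold most of the pattern. The contrast with other miRNAs thus follows in large part from that selection and is not separate evidence. The pattern was looked for because of what is known of these miRNAs in other plants, and after the windows had been seen. A match is a description of the codons and not of a protein's activity.

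The site fell on the first base of a codon in 27 of the 30 gene models, or 90.0%, against 51 of the 127 sites of other known miRNAs, or 40.2%. In each of the 26 gene models with the pattern it was the first base. This follows from the search, because the pattern stands at the same place in every window that holds it and was asked for in frame. Most of the 90.0% therefore adds nothing to the count of gene models with the pattern. As these gene models share a sequence, they are not independent of each other. MDP0000854581 of Set 7 also had its site on a first base but no pattern, and the 3 gene models of Set 6 had it on codon base 3 (MDP0000130212 and MDP0000222555) or codon base 2 (MDP0000367358), so that the same window is read in different frames within Set 6.

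The position of the site differed more than its codon. Among the 26 gene models with the pattern, the site lay between base 118 and base 934 with a median of 640, in models of 801 to 3981 bases with a median of 2780. Positions that 3 or more gene models shared ran from base 634, with 4, over base 655, with 4, to base 658, with 3, and 12 of the 26 gene models had their site in this stretch. In MDP0000211316, for example, it was base 634 of 2841, in MDP0000704323 base 655 of 3153, in MDP0000304601 base 934 of 3177 and in MDP0000194077 base 886 of 3981. The site was before the middle in 24 of the 26, at a median of 22.3% of the length. The exceptions were MDP0000217718, with base 634 of 801, and MDP0000166800, with base 658 of 1284.

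The 4 gene models without the pattern were all short. MDP0000130212 had its site at base 537 of 591 and MDP0000222555 at base 558 of 612, close to the end, and MDP0000367358 had it at base 38 of 195. MDP0000854581 had it at base 217 of 351. Of the 30 gene models 24 were of 1000 bases or more, and these 24 all had the pattern.

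**Figure D3:**
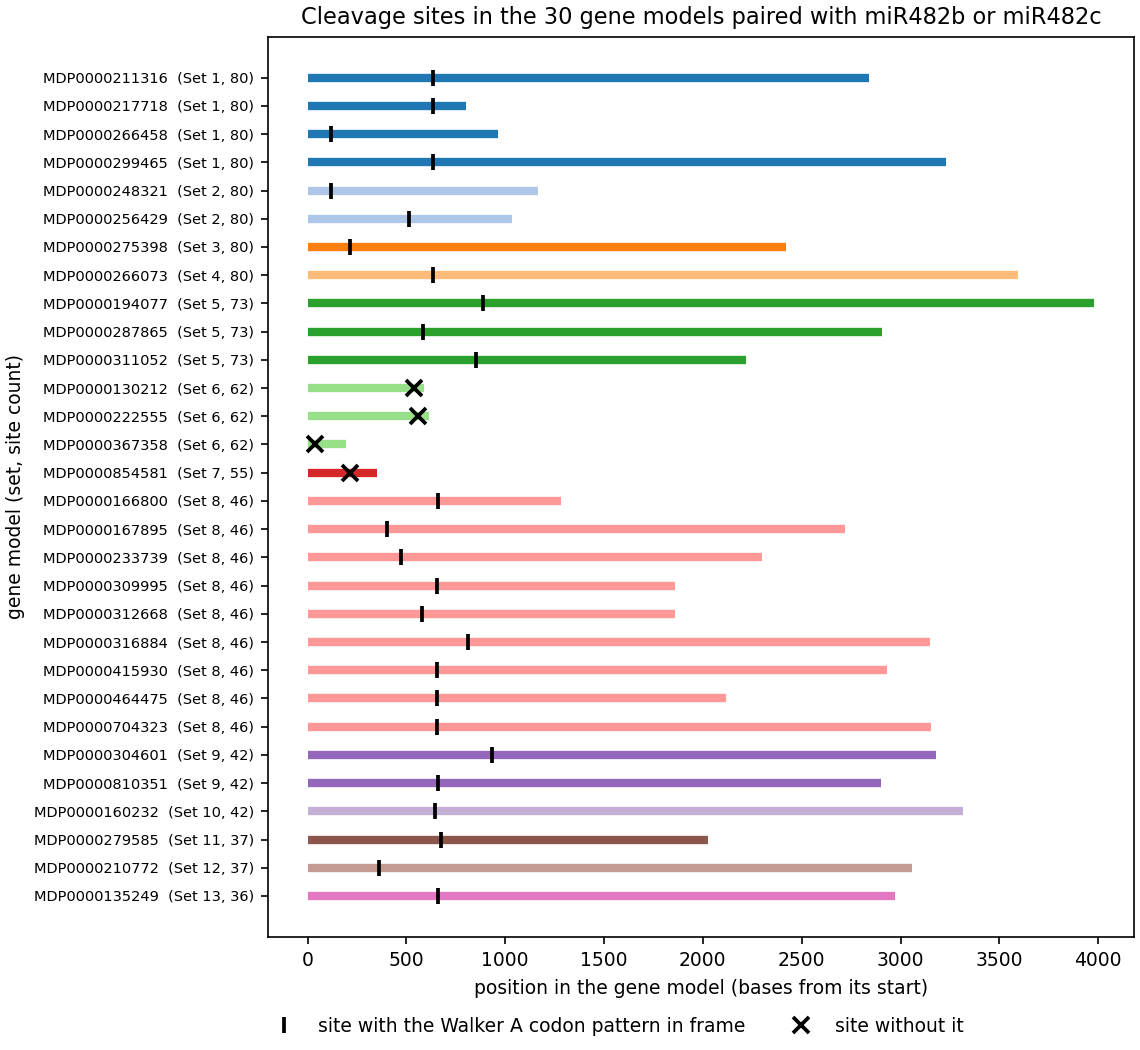
The 30 gene models paired with mdm-miR482b or mdm-miR482c, drawn to scale from their start, with the set and the site count of each in parentheses and 1 colour per set. Vertical ticks mark sites with the Walker A codon pattern in frame (26) and crosses sites without it (4). Ticks stand at bases 118 to 934, many of them near base 640, and the crosses are on models of 195 to 612 bases.

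Between mdm-miR482b and the windows, pairing failed at the same few bases. Base 11, next to the cut, was mismatched in 24 of the 30 gene models, base 8 formed a wobble in 25, and base 20 formed a wobble in 26. Base 5 was a wobble in 10 and a mismatch in 5, whereas bases 1, 4, 6, 7, 9, 12, 13, 17, 18, 19 and 21 were paired in all 30. Scores of mdm-miR482b ran from 2 to 3.5. The lowest score of 2 was that of Sets 1, 3, 4, 9 and 10, each with a mismatch at base 11 and wobbles at bases 8 and 20.

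These bases lie opposite codon base 3, which can often change without a change of the amino acid. In the 26 gene models with the pattern, mdm-miR482b had 94 bases that formed a wobble or a mismatch, and 91 of them, or 96.8%, were opposite codon base 3, which makes up 31.8% of the bases opposite the miRNA. Counted over the 11 different windows the figures were 36 of 38, or 94.7%. The pattern fixes codon bases 1 and 2 of its glycine and lysine codons, and these fixed bases pair with mdm-miR482b. Pairing could not fail there, so 31.8% is not the share expected without a preference. The 3 exceptions in the gene models were mismatches at base 15 in Set 2 and at base 16 in Set 11. The windows varied among themselves in the same way, at 6 of the 9 places of codon base 3 from window base 3 on, against 2 of 10 places of codon base 1 and 1 of 10 of codon base 2. Some of the places of codon bases 1 and 2 are fixed by the pattern here as well. The base opposite base 11 was the most variable and took all 4 letters over the 11 windows.

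mdm-miR482c paired less well than mdm-miR482b with nearly all windows, because of its single different base. Its penalty was higher by 1 in 12 of the 13 windows, from a mismatch at base 10, and lower by 1 in Set 7. In 24 of the 30 gene models mdm-miR482c was thus mismatched at both bases that flank the cut. In the gene models with the pattern, its base 10 lies opposite codon base 1. Of its 120 bases there that formed a wobble or a mismatch, 91, or 75.8%, were opposite codon base 3. Sets 5 and 11, with 4 gene models, had no record of mdm-miR482c, where its penalty was 4.5, and Set 7 had none of mdm-miR482b, where its penalty was 5. Each of these lies above the highest score in the records. Both bases of mdm-miR482b next to the cut were paired in Sets 6, 11 and 12, with counts of 62, 37 and 37. The sets with the highest count, 80, had base 11 mismatched.

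**Figure D4:**
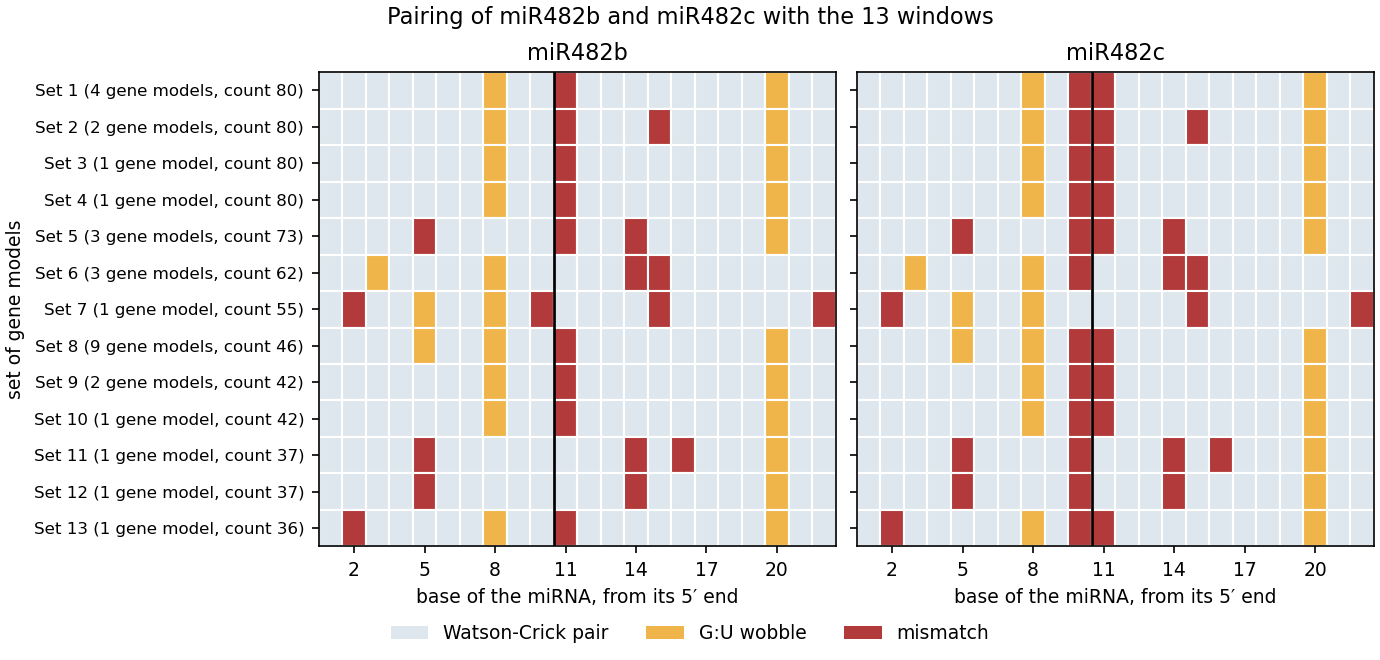
Pairing of mdm-miR482b and mdm-miR482c with the windows of the 13 sets, by base of the miRNA from its 5′ end, with Watson-Crick pairs in grey, G:U wobbles in orange and mismatches in red. The black line is the place of the cut between bases 10 and 11. The labelled bases are those opposite codon base 3, except in Set 6 whose frame differs, and for mdm-miR482b the coloured cells stand mostly in these columns, while mdm-miR482c adds a column of mismatches at base 10.

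The members without a record were set against the same 13 windows. Aligned with base 10 at the site, mdm-miR482a-5p, mdm-miR482a-3p, mdm-miR482d and mdm-miR2118 had penalties from 15.5 to 19.0. When each was moved along the window to the place of its lowest penalty, mdm-miR482a-3p reached 5.5 to 7.5 and mdm-miR2118 reached 6 to 11.5, while mdm-miR482a-5p stayed at 11.5 or more and mdm-miR482d at 14.5 or more. None came to 4 or less in any window. For mdm-miR482a-3p the best place was 2 bases further 5′ on the mRNA in all 13 windows, and for mdm-miR2118 in 12 of 13. At that place base 10 did not face the site, and a base nearer the 5′ end of the miRNA did. It was also the farthest 5′ place that the windows allow, and the gene models beyond them were not analysed here.

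**Figure D5:**
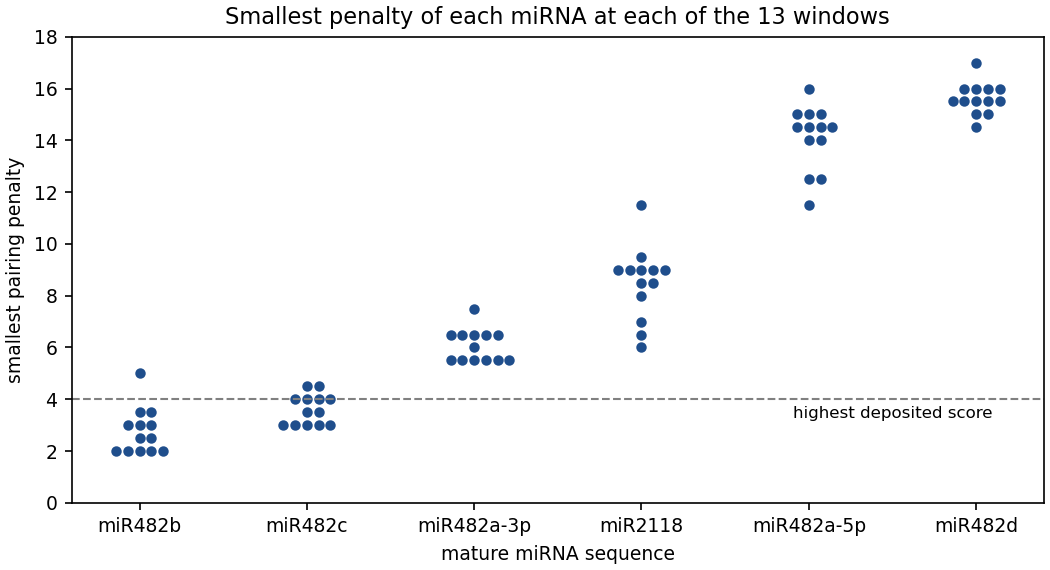
Smallest pairing penalty of each mature sequence at each of the 13 windows, over all places without gaps within the window. Each point is 1 window and the dashed line is the highest score in the records, 4. mdm-miR482b and mdm-miR482c lie at 5 or less, mdm-miR482a-3p from 5.5 to 7.5, and the other 3 sequences have their highest values at 11.5 to 17.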

How the data were processed

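Small RNA of 18 to 30 nt from the pooled A and J leaves was sequenced, and the authors deposited 1 table per library with a read count, not normalized, for 380 entries. The deposited counts sum to 4272351 in A and 6275651 in J over all entries, names of 1 sequence included. Sequences of the names, known in miRBase, came from the study's supplementary tables. Counts were divided by the clean reads that the study states, of which J had 0.835 per read of A. Degradome fragments were placed on the apple genome by the authors, who used PairFinder to pair sites with miRNAs, and the count and score of each record are other values that they deposited. The genome build is not given in the sources used here. The site was placed at base 15 of each window because the 3 gene models whose site is base 15 have windows that begin with a start codon.

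Intervals came from SciPy 1.17.1 (Python 3.11.15, numpy 2.4.6), those of ratios between members with over 500 reads each on the log scale. TMM scaling used edgeR 4.0.16 in R 4.3.3, duplexes RNAduplex 2.7.2 and figures matplotlib 3.10.9. Ratios and penalties were tested on simulated data or deposited scores. Every member sequence and gene model is named, other miRNAs only as neighbours in reads or number of gene models. Members, lists and alternatives were chosen with earlier results of these data known.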

Additional observations from a re-analysis of the deposited data

How the results depend on the processing

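Other scalings moved all J over A ratios together. Scaled by the known miRNA total, the ratio was 1.04 for mdm-miR2118, 0.461 for mdm-miR482a-5p, 0.457 for mdm-miR482a-3p, 0.345 for mdm-miR482d, 0.242 for mdm-miR482b, 0.285 for mdm-miR482c and 0.453 for the sum of mdm-miR482, so that mdm-miR2118 was not called and the other 5 of the 6 members were called higher in A, against 37.3% of the 59 known sequences tested. Without mdm-miR156 and mdm-miR535 in that total, it was 1.97 for mdm-miR2118, 0.875 for mdm-miR482a-5p, 0.869 for mdm-miR482a-3p, 0.460 for mdm-miR482b, which was called, and 0.860 for the sum. With the median ratio set to 1, it was 1.51 for mdm-miR2118, 0.671 for mdm-miR482a-5p, 0.666 for mdm-miR482a-3p, 0.353 for mdm-miR482b and 0.415 for mdm-miR482c, both called, and 0.660 for the sum. With edgeR's TMM factors, it was 1.54 for mdm-miR2118, 0.684 for mdm-miR482a-5p, 0.678 for mdm-miR482a-3p, 0.359 for mdm-miR482b and 0.423 for mdm-miR482c, both called, and 0.672 for the sum. With no scaling, mdm-miR2118 was still called, mdm-miR482b was called at 0.475, and the ratio was 0.904 for mdm-miR482a-5p, 0.897 for mdm-miR482a-3p and 0.888 for the sum. Of all calls among the known sequences, 81.5% were of sequences higher in J on clean reads, 31.2% by the known miRNA total, 65.2% when mdm-miR156 and mdm-miR535 were left out, 50% on the median ratio and on TMM, and 66.7% without scaling. A fold of 1.5 called mdm-miR482b at its ratio of 0.569. Counting each name, or setting no minimum of reads, changed no call.

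A count of 50 or more left 15 of the 30 gene models and a score of 3 or less left 25. Sets made by count alone were 8 in place of 13. Counted once per set, 12 of the 13 sets had the site on codon base 1. With mdm-miR482c added to mdm-miR482b, mdm-miR482d made up 98.7% in A and 99.0% in J, from 99.3% and 99.5%. No paired analysis was possible because there is 1 library per phase. Depth limits mdm-miR482b and mdm-miR482c most, whose ratio intervals span a factor of over 2.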
